A study of Rattus norvegicus with 18 samples.

Results

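Isoliensinine-treated and untreated spontaneously hypertensive rats were compared by RNA sequencing of the kidney, in 12 of the 18 libraries of the series. The libraries were taken by their titles. The 6 titled Iso (called SHR+Iso here) came from rats of the SHR strain given isoliensinine at 5 mg/kg per day for 10 weeks. The 6 titled SHR came from rats of the same strain given double distilled water for 10 weeks, so that strain and tissue were the same in both groups. The 6 WKY libraries, from normotensive Wistar-Kyoto rats on water, are given only for reference, beside single transcripts and in the description of the list. Neither the labels nor the design text state the rats' age or sex, and 1 dose and 1 time point were analysed.

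The spontaneously hypertensive rat is an inbred strain derived from Wistar-Kyoto stock that develops high blood pressure without surgery or a special diet, and its kidney is studied for hypertensive injury. Isoliensinine is a bisbenzylisoquinoline alkaloid of the lotus seed embryo. By its title the series concerns kidney injury and the TGF-beta and SMAD pathway, in which the secreted factor TGF-beta acts through its receptor kinases on SMAD proteins, which then enter the nucleus and regulate genes, matrix genes among them. The deposited files list transcripts by Ensembl transcript ID or by an assembly ID, made of the word MERGE and the numbers of the locus and the isoform, without gene names. Of 6214 IDs, 0 matched the available rat gene and sequence tables (assembly GRCr8). TGF-beta, SMAD and matrix genes, and the markers that would check the tissue, could therefore not be looked up, and neither positions nor sequences are given.

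The SHR and SHR+Iso files had 614 transcripts in common, 141 with Ensembl IDs and 473 assembled. They had been selected for differing: on a log2(value + 0.01) scale, 98.9% differed between the SHR+Iso and SHR means by at least 1. The SHR list is also the WKY list, and 99.5% of the 614 differed by as much between SHR and WKY, so that a transcript on which SHR stands apart from both other groups is favoured by the selection. Counts and p-values below therefore describe this selected list and not the kidney transcriptome. Each value is the authors' normalized transcript abundance on a scale that is not stated, and sequencing depth is unknown, so values of different transcripts were not compared with each other. Between 65 and 84 of the 614 transcripts were listed at 0 in an SHR library. In SHR+Iso replicates 2 and 4 this number was 265 and 224, against 97 to 156 in the other 4 treated libraries. In the 6 WKY libraries it ran from 116 to 232, so that treated replicate 4 lay within the WKY range. In whole tissue, fewer cells of a type and less RNA per cell cannot be told apart. The labels give the libraries as separate samples, and p-values measure the spread between them.

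Most transcripts that passed the test were lower in treated rats, as were most of the shared list before any test. In that list, 405 transcripts (66.0%) had a lower mean log2 value in SHR+Iso. Whether the calls leaned lower beyond this make-up of the list was not tested. A linear model with moderated variance (limma) on log2(value + 1) tested the 289 transcripts that reached a value of 1 in 6 or more of the 12 libraries. Of these, 122 (42.2%) passed a Benjamini-Hochberg adjusted p of 0.05, with the treated rats higher for 35 (12.1%) and lower for 87 (30.1%). The median log2 difference was 1.29 among the 35 and -1.46 among the 87, against -0.89 over all 289. The direction of most calls depended on the scaling. After quantile normalization, which gives every library the same distribution, 99 passed, 81 higher and 18 lower, and the median over the 289 was -0.29. On a selected list that is mostly lower in treated rats, equal distributions raise treated values against SHR. This alternative therefore cannot settle the direction. Only 53 of the 122 were called under both scalings. Single libraries moved the number of calls: among untreated rats, leaving out replicate 4 gave 56 and replicate 5 gave 71. Among treated rats, leaving out replicate 2 gave 71, replicate 4 gave 80 and replicate 6 gave 186, and 29 were called when treated replicates 2 and 4 were both left out.

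Single transcripts that separated all 6 treated from all 6 untreated libraries were as many in one direction as in the other. For 52 of the 614 (8.47%), the lowest value of one group lay above the highest of the other, 26 (4.23%) higher and 26 (4.23%) lower in SHR+Iso. Of the 26 higher, 6 had Ensembl IDs, and of the 26 lower, 5 did. Many were low: 17 of the 26 higher and 15 of the 26 lower had means under 2 in both groups, and 14 in each direction were too low to be tested. Of the 12 tested per direction, 7 of the higher and 11 of the lower passed limma's adjusted p of 0.05, against 122 of all 289 tested (42.2%). Values picked for not overlapping favour a pass in a test on the same values, so these counts are a description. The log2 differences ran from 0.41 to 2.23 (median 0.69) among the higher and from -2.78 to -0.53 (median -1.04) among the lower. The gap between the nearest libraries of the groups was narrow, with a median of 0.09 on the log2 scale among the higher and 0.21 among the lower. It was under 0.1 for 14 of the higher and 7 of the lower.

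**Figure D1:**
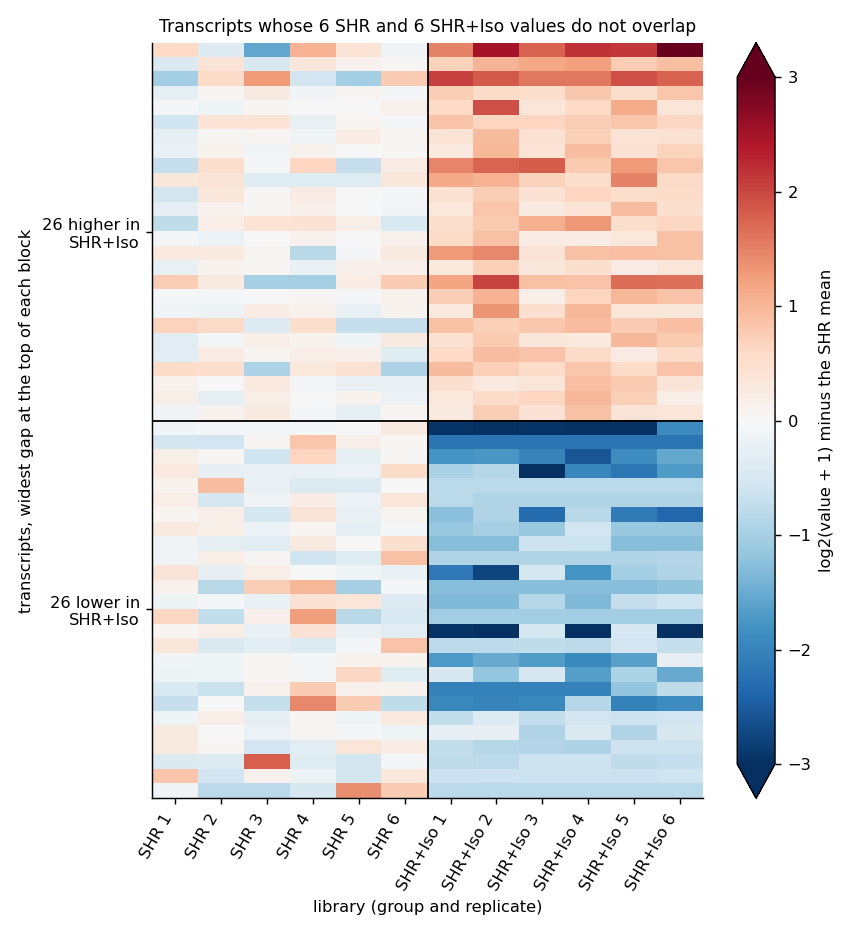
The 52 transcripts whose values do not overlap between groups (rows, widest gap first in each block) in the 6 SHR and 6 SHR+Iso libraries (columns); colour is log2(value + 1) minus the SHR mean, limited to 3 in either direction. In both blocks the size of the difference varies between transcripts and between treated libraries, from 0.68 (SHR+Iso 3) to 1.07 (SHR+Iso 2) on average over the 26 higher ones.

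Scaling decided which transcripts separated the groups. After quantile normalization of the 614, an alternative chosen after seeing the data, 102 transcripts were separated as higher and 4 as lower; 25 of the 26 higher and 4 of the 26 lower above were among them. The median difference over the 614 was -0.56 as deposited and -0.24 after this scaling. Here too, equal distributions on a selected list cannot settle which transcripts separate the groups. With 1 library fewer the number can only stay or grow, and it reached 79 (37 higher, 42 lower) without SHR replicate 3 and 94 (42 higher, 52 lower) without SHR+Iso replicate 1.

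Among the Ensembl transcripts that were separated and passed limma, 2 were higher in treated rats. ENSRNOT00000029728 had values of 2.35, 1.39, 0, 0, 1.32 and 2.40 in SHR replicates 1 to 6 and of 3.52, 7.19, 2.67, 2.59, 5.36 and 5.31 in SHR+Iso replicates 1 to 6. Replicate 2 was the highest treated library and replicate 4 the lowest, 0.08 on the log2 scale above the highest SHR library. Its log2 difference was 1.38 ± 0.41 (SE; limma adjusted p = 0.0217). The 6 WKY libraries ran from 1.53 to 5.04. Without SHR replicate 4 its adjusted p was 0.0531, and without SHR+Iso replicates 2 and 4 together it was 0.0547, with a log2 difference of 1.35.

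ENSRNOT00000015667 was even in treated rats and uneven in untreated ones. Its SHR+Iso values were 1.99, 1.68, 1.83, 2.07, 1.73 and 2.02, or 1.89 ± 0.161 (SD, n = 6), with replicate 2 the lowest and replicate 4 the highest. Its SHR values were 1.60, 1.40, 0.249, 1.35, 0 and 0, so that 3 untreated libraries lay just below the treated ones and 3 near or at 0. The log2 difference was 0.83 ± 0.30 (SE; limma adjusted p = 0.0411). The call was near the threshold. The adjusted p missed 0.05 at 0.0699, 0.05003, 0.0879 and 0.0815 when SHR replicate 3, 4, 5 or 6 was left out, and at 0.0529, 0.05005 and 0.0591 when SHR+Iso replicate 2, 3 or 4 was, while the log2 difference stayed at 0.75, 0.93, 0.69, 0.69, 0.85, 0.83 and 0.81. It was 0.0867 without SHR+Iso replicates 2 and 4 together and 0.0567 with a pseudocount of 0.1. WKY libraries lay at 1.47 to 2.47.

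The Ensembl transcript with the widest gap was lower in treated rats. ENSRNOT00000070897 had values of 20.2, 18.5, 11.5, 28.6, 14.6 and 18.2 in SHR, or 18.6 ± 5.82 (SD, n = 6). In SHR+Iso the values were 4.47, 4.67, 3.75, 2.19, 4.21 and 5.52, or 4.13 ± 1.12 (SD, n = 6). Every treated library was below every untreated one, by at least 0.93 on the log2 scale. The SHR mean was 4.50 times the SHR+Iso mean, and the log2 difference was -1.91 ± 0.41 (SE; limma adjusted p = 0.00614). Replicate 2 lay within the range of the other 4 treated libraries and replicate 4 below it, and without both the log2 difference was -1.80 (limma adjusted p = 0.00560). Its adjusted p lay between 0.00102 and 0.0151 over the 20 alternatives that gave a value, quantile normalization included, and the values stayed separated after that scaling. The WKY value was 8.64 ± 4.75 (SD, n = 6), from 4.13 to 16.4, so that WKY overlapped both groups.

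ENSRNOT00000027630 was also lower in every treated library, but in 2 ways. SHR values were 10.1, 11.3, 8.32, 13.2, 8.31 and 7.54. SHR+Iso replicates 3 and 5 had 6.36 and 6.47, just under the lowest SHR library, whereas replicates 1, 2, 4 and 6 had 0.382, 0.321, 0 and 0.00703. The log2 difference was -2.30 ± 0.56 (SE; limma adjusted p = 0.00914), and -1.85 without SHR+Iso replicates 2 and 4 (adjusted p = 0.0545). WKY libraries showed the same kind of split, at 5.49, 8.17 and 9.72 for replicates 3, 5 and 6, and at 0.0206, 0.00609 and 0.195 for the other 3. After quantile normalization its treated and untreated values overlapped.

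**Figure D2:**
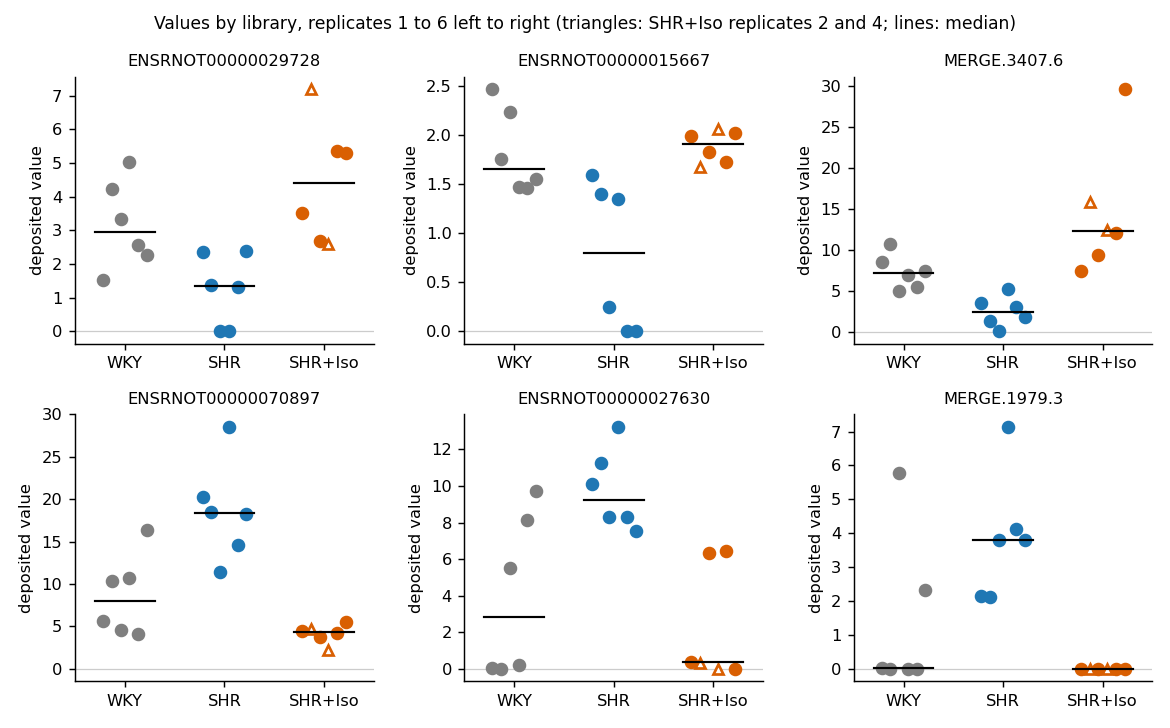
Deposited values (y axis, scale not stated) of 6 transcripts in each of 6 WKY, 6 SHR and 6 SHR+Iso libraries; each point is 1 library, triangles are SHR+Iso replicates 2 and 4, and lines are medians. These 6 transcripts were chosen among those whose SHR and SHR+Iso points do not overlap. In ENSRNOT00000027630, 2 treated libraries lie near the SHR values while 4 lie near 0.

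Further transcripts were singled out after their values were seen. The widest gap among those higher was that of the assembled transcript MERGE.3407.6, at 0.45 on the log2 scale; SHR+Iso replicates 2 and 4 had 15.8 and 12.4 and lay within the other 4 (7.40 to 29.5), while SHR ran from 0.0190 to 5.17 and WKY from 4.96 to 10.7. The widest among those lower was that of MERGE.26395.1, at 1.83. There, both SHR+Iso replicates 2 and 4 were listed at 0 and the other 4 were at 0 to 1.07, against 6.39 to 8.43 in SHR. Low values of MERGE.26395.1 were not confined to treated rats. Its WKY libraries, taken from replicate 1 to replicate 6, gave 6.52, 0.0124, 5.40, 7.10, 0 and 0.346. Both MERGE.3407.6 and MERGE.26395.1 stayed separated between SHR and SHR+Iso after quantile normalization.

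Of the 614, 3 transcripts were listed at 0 in all 6 treated libraries and above 0 in all 6 untreated ones, and 0 showed the reverse. MERGE.1979.3 had SHR values of 2.15, 2.11, 3.80, 7.15, 4.14 and 3.81. It was the only one of the 3 high enough to be tested, and it reached that level through its 6 SHR libraries alone. Its mean was lower in SHR+Iso by 2.20 on the log2 scale. No p-value is given for it, because it was picked for being at 0 in all 6 treated libraries. In WKY, MERGE.1979.3 was at 5.77 and 2.31 in replicates 3 and 6, at 0.0358 in replicate 1 and listed at 0 in the other 3. MERGE.17945.5 ran from 0.318 to 2.32 in SHR and MERGE.21101.5 from 0.155 to 3.93. WKY libraries listed the former at 0 except in replicates 3 and 5 (1.06 and 1.48) and the latter at 0 except in replicate 1 (1.65). An exact 0 may be a failed estimate, so these values do not show that the transcripts were absent. The number of such transcripts was 6 without SHR replicate 3, 7 and 8 when SHR+Iso replicate 1 or 6 was left out, and 5 without both treated replicates 2 and 4. After quantile normalization all 3 kept a lower mean, and MERGE.1979.3 alone of them stayed separated.

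The 87 transcripts called lower were seldom lower to the same degree in all treated rats. In 68 of the 87, at least 1 treated library had less than 10% of the SHR mean and at least 1 other had 50% or more of it. In 27 of the 87, at least 1 treated library was at or above the SHR mean. All 6 treated libraries were under 50% of the SHR mean in 11, and all 6 under 10% in 1. Among the SHR libraries themselves, a value under 10% of their own mean beside one of 50% or more occurred in 7 of the 87. However, the list was chosen with these SHR libraries and their mean is the reference. The WKY libraries, also untreated, were not counted in this way. Such a spread was not confined to treated rats, as ENSRNOT00000027630 above had it in WKY too. ENSRNOT00000089205, also among the 87, had 0.213 and 0.215 in WKY replicates 3 and 5. Its values were 42.9 to 50.4 in WKY replicates 1, 2, 4 and 6. Among the 4 treated libraries other than replicates 2 and 4, 52 of the 87 had such a spread, and 18 had all 4 under 50%. Leaving out 1 treated library at a time gave 58 to 66.

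The share of the 87 that was low differed between treated rats. Replicate 2 had 62 of the 87 under 10% of the SHR mean and replicate 4 had 51, against 37, 43, 35 and 26 in replicates 1, 3, 5 and 6. Conversely, 5 and 14 of the 87 were at 50% or more in replicates 2 and 4, against 30, 25, 23 and 34 in the others. Replicates 2 and 4 also had the most zeros, 43 and 33 of the 87, where the other 4 had 11 to 20; the part of these zeros in the calls was not tested. Among the 35 transcripts called higher, replicate 2 was at 2 times the SHR mean or more in 35, replicates 3 and 4 in 31 each, replicates 5 and 6 in 25 each and replicate 1 in 18. All 6 treated libraries reached 2 times the SHR mean in 7 of the 35, and in 11 at least 1 treated library was below the SHR mean.

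**Figure D3:**
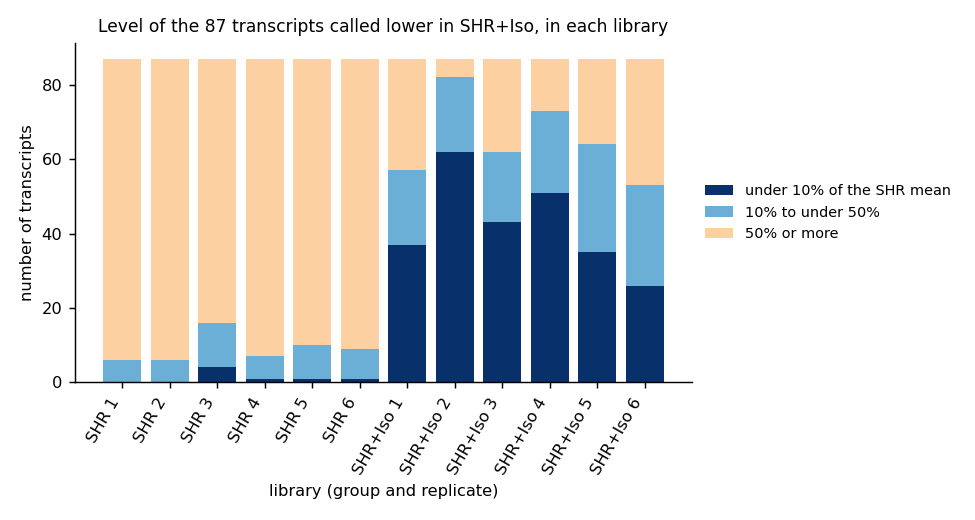
For each SHR and SHR+Iso library (x axis), the number of the 87 transcripts called lower in SHR+Iso whose value is under 10%, from 10% to under 50%, or 50% or more of the SHR mean (stacked bars, y axis). SHR+Iso 2 and 4 have the tallest dark bars, at 62 and 51, and SHR+Iso 6 the shortest of the treated libraries, at 26.

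The same unevenness held across the whole shared list. Of the 406 transcripts with a lower mean in SHR+Iso, 69 had an SHR library at 0, below which no value can lie. In the other 337, the number of treated libraries below all 6 SHR libraries was 3 in 98 transcripts, 4 in 124, 5 in 75 and 6 in 26, and 14 had fewer. Of the 208 with a higher mean, 26 had all 6 treated libraries above all SHR libraries, 49 had 5, 43 had 4, 46 had 3, and 44 had fewer. Counted by library, SHR+Iso replicate 2 lay outside the SHR range for 462 of the 614 and replicate 4 for 442, against 285 to 348 for the other 4. The excess was mostly on the low side: replicates 2 and 4 were below all SHR libraries for 306 and 283 transcripts, the others for 150 to 228. On the high side the counts were 156 and 159, and 120 to 151 in the others. Single SHR libraries also lay outside the other 5 SHR libraries, below them for 56 to 149 transcripts and above them for 59 to 131. A range of 5 libraries is at most as wide as that of 6, so these counts are not on equal terms.

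**Figure D4:**
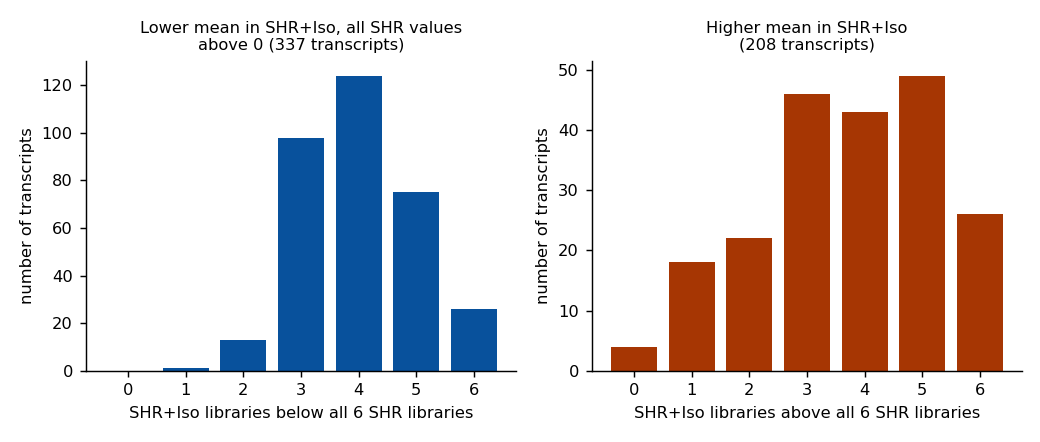
Number of transcripts (y axis) by how many of the 6 SHR+Iso libraries lie below all SHR libraries (left, 337 transcripts with a lower mean and all SHR values above 0) or above all SHR libraries (right, 208 transcripts with a higher mean). Most transcripts have 3 to 5 such libraries, and 26 in each panel have 6.

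Replicates 2 and 4 were then set apart within the 52 separated transcripts. Averaged over the 26 higher ones, log2(value + 1) was 1.07 above the SHR mean in replicate 2 and 0.84 in replicate 4, against 0.68 to 0.84 in the other 4. Replicate 2 was the highest treated library in 11 of the 26 and replicate 4 in 6. Both lay above the other 4 in 6 of these 26 and below them in 0. Over the 26 lower ones the average was -1.32 and -1.33 in replicates 2 and 4 and -1.30 to -1.19 in the others; 19 of these 26 had a treated library at 0, below which no value can lie, and all were chosen for lying below SHR in all 6 libraries, so these averages are a description. Replicate 6 was the highest treated library in 8 of these 26, replicates 1 and 4 in 4 each, replicate 5 in 3 and replicates 2 and 3 in 2 each. Replicates 2 and 4 both lay below the other 4 in 1 transcript and above them in 3. Without these 2 libraries the median log2 difference was 0.65 over the 26 higher and -1.08 over the 26 lower. The 4 remaining libraries separated 40 higher and 36 lower transcripts from SHR, 14 and 10 more than all 6 did. In the 14, replicate 2 reached into the SHR range or below in 8 and replicate 4 in 6, and in the 10 they reached into it or above in 6 and 7. The reverse was also seen, with both replicates outside the SHR range and none of the other 4, in 7 transcripts on the high and 8 on the low side.

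Isoforms of the same assembled locus mostly went the same way. The 473 assembled transcripts came from 438 loci, 22 of which had 2 or more listed isoforms, 57 in all. Every isoform had a lower mean log2 value in SHR+Iso at 18 of the 22 loci and a higher one at 2. Of all 614 transcripts, 405 (66.0%) had a lower mean log2 value. After quantile normalization, added after seeing the data, the isoforms were all lower at 17 loci, all higher at 2 and opposite at 3, and 390 of the 614 were lower. Isoforms of a locus share reads and are not independent. At locus 14569 all 7 listed isoforms had a lower mean, by 0.31 to 0.47 on the log2 scale, and all were below the level needed for a test. SHR+Iso replicates 2 and 4 were listed at 0 for all 7, as was WKY replicate 4. SHR+Iso replicate 1 lay within the SHR range for all 7.

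At 2 loci isoforms went in opposite directions, and they are named for that after their values were seen. MERGE.12522.4 was tightly grouped in SHR, at 2.55 to 3.14. It was lower in every treated library, at 0.163, 0.342, 0.210, 0.00118, 0.237 and 2.24 in replicates 1 to 6 (log2 difference -1.46). MERGE.12522.9, from the same locus, was at 0.489 to 1.82 in SHR and at 6.87, 4.87, 5.95, 1.64, 7.38 and 0.956 in SHR+Iso (log2 difference 1.22). No p-value is given for either, because they were picked for going in opposite directions. The SHR libraries of isoform 4 alone were enough for it to be tested. Treated replicate 6 was near SHR for isoform 4 and within the SHR range for isoform 9. Replicate 4 was the lowest treated library for isoform 4 but within the SHR range for isoform 9, and replicate 2 lay apart from SHR for both, as replicates 1, 3 and 5 did. In WKY, replicates 2 and 3 had low values of isoform 4 (0.145 and 0.359) and high values of isoform 9 (6.72 and 8.91), and the other 4 had 1.97 to 2.80 and 1.46 to 2.14.

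At locus 4002 both isoforms were too low to be tested. MERGE.4002.1 was at 0 to 0.01005 in 5 SHR libraries and 0.523 in replicate 6, and in SHR+Iso at 2.34, 2.07, 2.34, 0, 0.675 and 0.908. MERGE.4002.2 was at 2.26 to 2.54 in SHR replicates 2 to 5 and 0.180 and 0.487 in replicates 1 and 6. In SHR+Iso it was listed at 0 except for 1.48 in replicate 4 and 0.689 in replicate 5. Treated replicate 4 was thus the library that listed isoform 1 at 0 and had the highest value of isoform 2, and replicate 2 lay with replicates 1 and 3. The direction of each of these 4 isoforms was kept after quantile normalization, and MERGE.12522.4 then overlapped between the groups. The number of loci with opposite isoforms was 2 whichever library was left out, except 3 without SHR replicate 3.

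**Figure D5:**
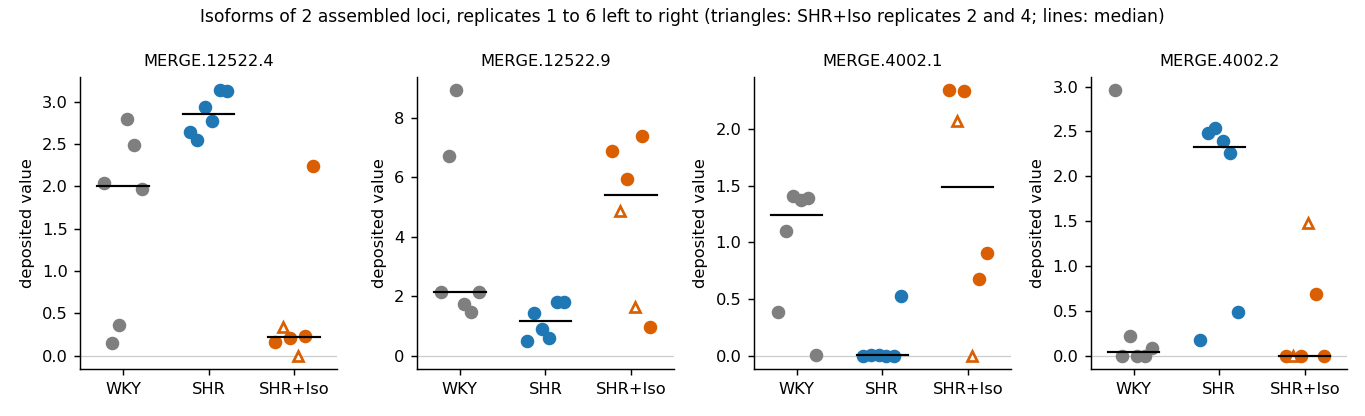
Deposited values (y axis) of 2 isoforms each of assembled loci 12522 and 4002 in 6 WKY, 6 SHR and 6 SHR+Iso libraries; each point is 1 library, triangles are SHR+Iso replicates 2 and 4, and lines are medians. One isoform of each locus has its highest median in SHR and the other its lowest, a pattern the selection of transcripts favours, and single treated libraries (replicate 6 at locus 12522, replicate 4 at locus 4002) lie with SHR.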

How the data were processed

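Total RNA of rat kidney was depleted of ribosomal RNA and made into NEBNext libraries, per the labels' protocols. The deposited files hold 1 normalized signal per transcript and library, computed by the authors on a scale that is not stated. Limma is the one tool in the submitters' processing notes, with aligner, quantifier, genome build and annotation not given in the sources used here. Depth is unknown, so no counting interval was computed.

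Values of the 614 transcripts listed for both groups were fitted with limma 3.58.1 in R 4.3.3 (trended prior, robust estimation) on log2(value + 1), with a minimum of 1 in 6 of the 12 libraries, two-sided, with Benjamini-Hochberg adjustment over all 289 tested. This scale understates changes of low transcripts. The test was also run on simulated data, drawn with the SHR spread in both groups. Real treated values were less even, so that run does not vouch for the p-values. Named transcripts were those past the threshold with no overlap, Ensembl IDs first, by the widest gap, 2 per direction; others are marked in the text. The gene lists drawn up for this comparison (TGF-beta pathway, matrix, and markers of renal and blood cell types) could not be used without gene names. Members, lists and rules were chosen with earlier results of these data known. Replicate numbers did not pair the libraries: same-numbered libraries correlated at -0.04 to 0.07 in their deviations from group means. Alternatives were another scaling, filter, pseudocount or variance model, a block, a fit over 3 groups, a size threshold and left-out libraries, which kept the 289.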

Additional observations from a re-analysis of the deposited data

Results flagged for a closer look

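In 38 groups of 6 libraries checked for a single library far from the rest, 7 had one. The rule is set to mark about 1 in 20 by chance. That rate need not hold for groups with many zeros or for transcripts picked on their values, so the 7 are not compared with it. The 7 fell in 6 transcripts, all of which were assembled and had been singled out after their values were seen. Among treated rats, replicate 6 stood above the other 5 for MERGE.12522.4 (2.24), and for MERGE.26395.1 (1.07). Among untreated SHR, replicate 6 stood above the other 5 for MERGE.26395.1 (8.43) and MERGE.4002.1 (0.523), and replicate 2 for MERGE.17945.5 (2.32). In WKY, replicate 1 stood above the other 5 for MERGE.21101.5 (1.65) and MERGE.4002.2 (2.96).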

How the results depend on the processing

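Removing the filter raised the 122 calls to 273, raising it to 5 left 44, a pseudocount of 0.1 gave 67, and omitting both treated replicates 2 and 4 gave 29; leaving out 1 library gave 56 to 186. With the replicate block, from numbers that did not pair the libraries, 127 passed. The other alternatives gave 99 to 153. The 52 separated transcripts became 24 under the filter used for limma and 106 after quantile normalization, and 60 to 94 with 1 library left out, a change its construction allows only upwards. Transcripts at 0 in treated libraries alone, 3 in number, became 3 to 8 with 1 library left out and 5 without SHR+Iso replicates 2 and 4. None of the 4 Ensembl transcripts named by rule reversed under any alternative that gave a value. They were named for values that do not overlap, so only quantile normalization could have reversed them. The 2 that were higher had no value with a filter at 5. Over those alternatives ENSRNOT00000029728 missed the threshold in 2 of 19, ENSRNOT00000015667 in 9 of 19, ENSRNOT00000070897 in 0 of 20 and ENSRNOT00000027630 in 1 of 20. Apart from the scaling, filter and fewer samples, the cause of these changes was not tested. Unknown depth limits what a value near 0 can show.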
